A study of Mus musculus with 32 samples.

Results

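The lipid droplet proteins examined here are 10 genes, taken as the entries of the deposited count tables whose symbols are Plin2, Plin3, Plin4, Plin5, Cidea, Cideb, Cidec, Pnpla2, G0s2 and Hsd17b13. All 10 were among the 41585 gene entries of each table. Liver RNA of WT and Cyp2b-null mice on a C57Bl/6J background was sequenced after 8 weeks on a normal chow diet (ND) or the CDAHFD, a high-fat diet (62% fat) that is built on amino acids, lacks choline and holds 0.1% methionine, and that produces fatty liver with inflammation. There were 8 groups of 4 libraries: ND-fed WT, CDAHFD-fed WT, ND-fed Cyp2b-null and CDAHFD-fed Cyp2b-null females, and the same 4 groups of males. Mice were 10 weeks old when the diets began. The Cyp2b-null line lacks Cyp2b9, Cyp2b10 and Cyp2b13, deleted with CRISPR/Cas9 in all cells. WT mice were bought at 6 weeks of age, so genotype and the source of the mice cannot be told apart. Females and males were deposited in separate tables, and sex and table likewise cannot be told apart. The comparisons ask how the diet and the loss of Cyp2b change these genes in fatty liver disease.

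A lipid droplet is a store of triglyceride and cholesterol ester that buds from the endoplasmic reticulum and is wrapped in a single layer of phospholipid carrying its own proteins. Perilipins (Plin2 to Plin5) coat that surface and limit the access of lipases. CIDE proteins (Cidea, Cideb and Cidec) sit at contacts between droplets, where Cidec and Cidea drive the merging of small droplets into large ones, and Cideb also helps to load lipid onto very low-density lipoprotein in hepatocytes. Pnpla2 encodes adipose triglyceride lipase (ATGL), the first enzyme of triglyceride breakdown, and G0s2 encodes its inhibitor. Hsd17b13 encodes a hepatocyte droplet enzyme with retinol dehydrogenase activity. Droplets of normal hepatocytes carry mainly Plin2, whereas Cidec, Cidea, Plin4 and the perilipin Plin1 are best known from adipocytes.

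Plin4, Plin5 and Plin3 lie on the minus strand of chromosome 17. On GRCm38, Plin4 is at chr17:56100587-56109948 and Plin5 at chr17:56111597-56117606, with 1648 bases between them, and Plin3 follows at chr17:56278962-56290511. Plin2 is at chr4:86626910-86670217, Cidec at chr6:113424634-113435760, Cideb at chr14:55754052-55758424, Pnpla2 at chr7:141455188-141460743, G0s2 at chr1:193272160-193273188 and Hsd17b13 at chr5:103955442-103977388. The 250 bases upstream of the transcript start are shown for the 5 genes on which the results turn: Cidec and Plin4, which rose most on the CDAHFD, Plin5, the neighbour of Plin4 that was not called, Plin2, the main perilipin of hepatocytes, and G0s2, which fell in males. The sequences are from RefSeq (GRCm38.p6), read 5′ to 3′ on the minus strand, and capitals mark a TATAA box, a CCAAT box or a match to AGGTCA on either strand, and no match overlapped another.
Cidec (chr6:113435761-113436010): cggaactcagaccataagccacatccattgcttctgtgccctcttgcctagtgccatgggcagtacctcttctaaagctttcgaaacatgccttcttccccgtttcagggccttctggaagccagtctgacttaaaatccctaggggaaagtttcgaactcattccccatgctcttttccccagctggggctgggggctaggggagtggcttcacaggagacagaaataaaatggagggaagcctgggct
Plin4 (chr17:56109783-56110032): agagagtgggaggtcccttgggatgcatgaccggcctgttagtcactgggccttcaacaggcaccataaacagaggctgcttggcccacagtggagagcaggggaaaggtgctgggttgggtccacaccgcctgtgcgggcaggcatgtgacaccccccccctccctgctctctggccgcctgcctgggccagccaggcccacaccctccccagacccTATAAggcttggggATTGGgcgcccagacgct
Plin5 (chr17:56117549-56117798): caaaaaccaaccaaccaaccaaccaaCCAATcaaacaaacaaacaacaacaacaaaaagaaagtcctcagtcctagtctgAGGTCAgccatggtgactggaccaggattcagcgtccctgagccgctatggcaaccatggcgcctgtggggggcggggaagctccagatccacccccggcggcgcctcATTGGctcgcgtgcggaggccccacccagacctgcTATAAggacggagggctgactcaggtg
Plin2 (chr4:86670060-86670309): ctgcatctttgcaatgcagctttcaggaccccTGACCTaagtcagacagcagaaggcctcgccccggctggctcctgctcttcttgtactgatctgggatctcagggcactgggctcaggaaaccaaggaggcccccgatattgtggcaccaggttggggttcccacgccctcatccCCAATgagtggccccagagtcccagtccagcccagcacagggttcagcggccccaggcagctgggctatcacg
G0s2 (chr1:193273189-193273438): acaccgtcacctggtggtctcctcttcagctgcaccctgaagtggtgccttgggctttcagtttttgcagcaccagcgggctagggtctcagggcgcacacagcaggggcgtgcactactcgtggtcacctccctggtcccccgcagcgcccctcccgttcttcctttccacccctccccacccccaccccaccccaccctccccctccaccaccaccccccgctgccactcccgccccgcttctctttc
RefSeq windows were found for 9 of the 10 genes, 11 windows in all. TATAA was present upstream of Plin4, Plin5 and Cideb, and in 22.8% of all 32851 windows. The TATAA of Plin4 began at position -32 and that of Plin5 at -27, counted from the transcript start. For Plin2, Plin4 and Plin5 the transcript start used lies inside the gene span given above, so part of each window overlaps the gene. CCAAT was present upstream of Plin2, Plin3, Plin4 and Plin5 and in 33.9% of all windows. AGGTCA, a half-site of nuclear receptors, was present upstream of Plin2, Plin5 and Hsd17b13 and in 14.0% of all windows, and the E-box CACGTG was present upstream of none of the 9 genes and in 6.02% of all windows. The windows of Cidec and G0s2 held none of these letters, and a match is a description of the sequence only.

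Libraries held 2906411 to 10166959 counts, so that 3 counts, taken here as the floor, corresponded to 0.295 to 1.03 units of CPM, the count scaled to a library of 1e+06. CPM in the text are scaled by trimmed mean of M values (TMM) within each table. Liver identity was clear: 6 hepatocyte markers summed to 52022 to 190680 CPM per library, and the white adipocyte markers Adipoq and Plin1 never exceeded 2 and 1 counts in a library, while Lep was at 0 in all 32 libraries. Of the other white adipocyte markers, Retn had at most 1 count, whereas Adrb3 was counted in all 32 libraries, at up to 38 counts (5.09 CPM). In the null libraries the summed level of Cyp2b9, Cyp2b10 and Cyp2b13 was 0.404 to 4.29 CPM, against 5.97 to 1095 CPM in WT. Libraries 2 and 4 of the ND-fed Cyp2b-null males stood apart for several droplet genes and for Cfd, an adipocyte-secreted protease. Cfd was at 32.4 and 15.5 CPM in these libraries, 3.06 and 6.63 CPM in the other two of the group, and at most 3.09 CPM in all other libraries. The 6 white adipocyte markers summed to 7.33 to 35.6 CPM in this group and to 0.871 to 5.09 CPM in the other 7 groups. The diet changes of the members in Cyp2b-null males are therefore also given without libraries 2 and 4, a choice made after the values were seen.

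Per kilobase of the longest transcript, Hsd17b13, Plin2 and Cideb were the 3 highest members in every group. In ND-fed WT females the mean level was 240 CPM per kb for Hsd17b13, 220 for Plin2 and 205 for Cideb, and libraries of neighbouring genes in this order overlapped. A gap without overlap separated them from G0s2 (50.5 CPM per kb), Plin5 (23.4) and Pnpla2 (22.9), which overlapped each other in turn. Plin3 followed at 10.6 CPM per kb, then Cidec at 1.16 and Plin4 at 0.433, whose libraries overlapped. The order among the top 3 depended on the length used: over all exons of each gene the levels were 190 CPM per kb for Hsd17b13, 167 for Cideb and 118 for Plin2, and 26 of the 80 levels of a gene in a group moved by more than the spread between libraries. On the CDAHFD the lower end of the order closed up. In CDAHFD-fed WT females Cidec reached 16.1 CPM per kb and overlapped Plin3 at 19.7 CPM per kb, and Plin4 reached 4.26 CPM per kb. In CDAHFD-fed WT males G0s2, which was 4th on ND, was 7th at 18.6 CPM per kb (6th over all exons), with libraries that overlapped those of Plin5 and Cidec. Cidea, a droplet fusion protein of brown fat and of steatotic liver, was last in all 8 groups. It had 0 counts in all 16 female libraries and 21 counts in total over 6 male libraries, of which 9 and 4 were in libraries 2 and 4 of the ND-fed Cyp2b-null males. It did not pass the filter on low counts and was not tested, which leaves 9 members in every test.

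**Figure D1:**
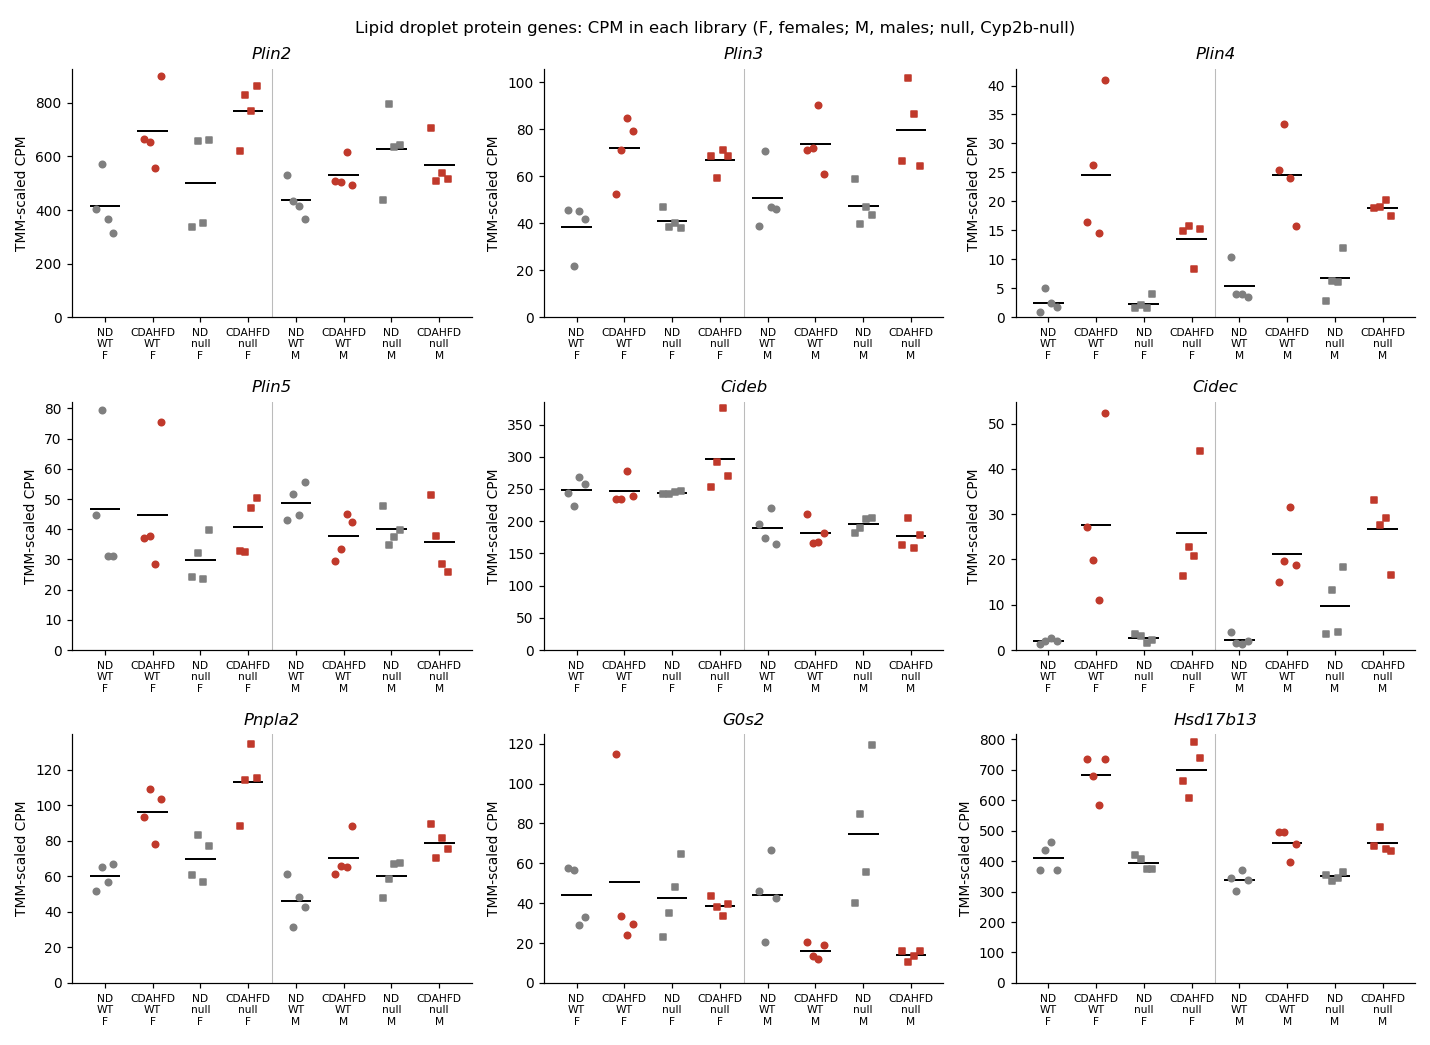
TMM-scaled CPM (y axis, from 0) of the 9 tested genes in each of the 32 libraries, by group on the x axis. Points are libraries (circles WT, squares Cyp2b-null; grey ND, red CDAHFD) and bars are means of 4; Cidec and Plin4 sit near the axis on ND and higher on the CDAHFD, while G0s2 is lower on the CDAHFD in males, at 10.6 to 20.3 CPM.

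The CDAHFD raised the liver RNA level of some members and left others at levels that were not distinguishable. Cidec, Plin4, Plin3 and Hsd17b13 rose in all 4 diet comparisons, although in Cyp2b-null males the calls of Plin3 and Hsd17b13 were lost without ND libraries 2 and 4. Pnpla2 rose in WT and Cyp2b-null females and in WT males, Plin2 rose in females of both genotypes, and G0s2 fell in males of both genotypes. Plin5 and Cideb passed the test in none. In WT females 6 of the 9 members were higher on the CDAHFD and 0 lower, where 24.1% of the 13226 genes tested were called, 13.9% higher and 10.2% lower. In Cyp2b-null females the same 6 members were higher and 0 lower, against 30.8% of all genes called, 16.9% higher and 13.9% lower. In WT males 5 were higher and 1 lower, against 33% of 13460 genes called, 18% higher and 15% lower. In Cyp2b-null males 4 were higher and 1 lower, against 37.4% called, 20.3% higher and 17.1% lower, and without ND libraries 2 and 4 the members called were 3. The median log2 change of the 9 members was 0.74, 0.70, 0.44 and 0.39 in these comparisons, and that of all genes tested lay between -0.02 and 0.03. Calls were made with the edgeR quasi-likelihood test at an adjusted p under 0.05 over all genes. Scaling by library size alone would move the median of all genes to between 0.28 and 0.37 and the share of calls that are higher from 54.3-57.6% to 85.8-89.8%, so log2 changes near that size depend on the scaling. The rises of Cidec, Plin4, Plin3, Pnpla2 and Hsd17b13 and the fall of G0s2 in males kept their call under it.

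**Figure D2:**
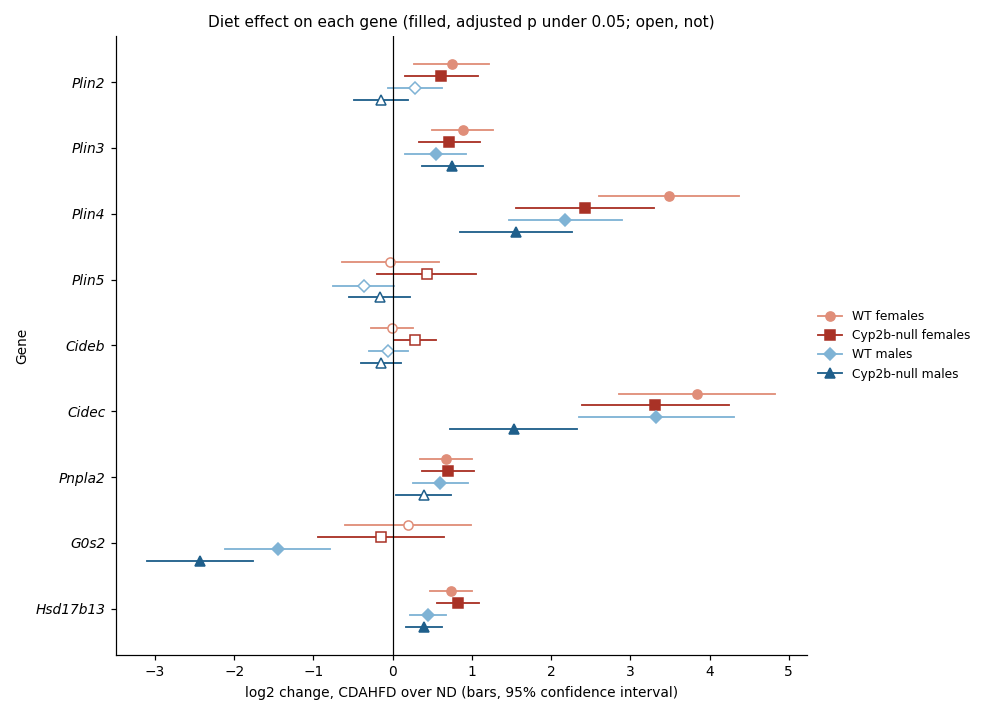
Log2 change on the CDAHFD over ND (x axis) for each tested gene (y axis) in WT females, Cyp2b-null females, WT males and Cyp2b-null males. Symbols are estimates from 4 against 4 libraries, bars 95% confidence intervals, and filled symbols passed an adjusted p of 0.05; Cidec and Plin4 lie furthest to the right and only G0s2 in males lies left of 0 with a filled symbol.

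Cidec (also called Fsp27), the fusion protein that makes large droplets in adipocytes, was the member with the largest rise in WT and Cyp2b-null females and in WT males. In ND-fed WT females it was at 1.4, 1.95, 2.71 and 1.9 CPM, from 5 to 11 counts, and in CDAHFD-fed WT females at 27.2, 19.9, 11.1 and 52.4 CPM. All 4 CDAHFD libraries exceeded all 4 ND libraries. The rise was 14.4-fold (log2 change 3.85 ± 0.47 SE, adjusted p = 4.5e-06). In Cyp2b-null females the level went from 3.64, 3.0, 1.56 and 2.19 CPM on ND to 16.4, 22.7, 20.7 and 44.0 CPM on the CDAHFD. The groups again did not overlap, and the rise was 9.96-fold (log2 change 3.32 ± 0.44 SE, adjusted p = 1.2e-05). In WT males the level went from 3.98, 1.46, 1.35 and 1.93 CPM to 15.1, 19.6, 31.7 and 18.7 CPM, a 10.0-fold rise (log2 change 3.33 ± 0.47 SE, adjusted p = 1.3e-05), with no overlap.

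In Cyp2b-null males the ND libraries were uneven. Cidec was at 3.5, 13.2, 3.93 and 18.3 CPM in ND-fed Cyp2b-null males, so that libraries 2 and 4 were several times higher than libraries 1 and 3 and library 4 overlapped the CDAHFD group. CDAHFD-fed Cyp2b-null males were at 33.2, 27.7, 29.2 and 16.6 CPM. The rise was 2.88-fold (log2 change 1.53 ± 0.39 SE, adjusted p = 0.0035). Without libraries 2 and 4 the log2 change was 2.85 ± 0.38 (adjusted p = 2.2e-05), with 2 ND libraries left. Cidea and Cfd were highest in the same libraries, as given above, while Adipoq had at most 2 counts and Lep 0. Whether these genes have a part in the Cidec values was not tested.

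Plin4, a perilipin of nascent droplets in adipocytes, rose in the same 4 comparisons. It was at 0.8, 5.07, 2.37 and 1.73 CPM (4 to 13 counts) in ND-fed WT females and at 16.5, 26.2, 14.6 and 40.9 CPM in CDAHFD-fed WT females. The rise was 11.3-fold (log2 change 3.49 ± 0.42 SE, adjusted p = 4.1e-06). Cyp2b-null females had 1.52, 2.0, 1.56 and 4.05 CPM on ND and 14.8, 15.8, 8.3 and 15.2 CPM on the CDAHFD, a 5.40-fold rise (log2 change 2.43 ± 0.42 SE, adjusted p = 0.00018). ND and CDAHFD libraries did not overlap in either genotype. In WT males the level was 10.3, 4.06, 3.91 and 3.43 CPM on ND and 25.4, 33.4, 24.0 and 15.7 CPM on the CDAHFD, a 4.53-fold rise (log2 change 2.18 ± 0.34 SE, adjusted p = 4.6e-05). Cyp2b-null males had 2.73, 6.26, 6.0 and 12 CPM on ND and 18.8, 19.0, 20.2 and 17.4 CPM on the CDAHFD, a 2.93-fold rise (log2 change 1.55 ± 0.34 SE, adjusted p = 0.0011), and without ND libraries 2 and 4 the log2 change was 2.19 ± 0.40 (adjusted p = 0.00046). The groups of males did not overlap either, although ND levels were already 5.43 ± 3.27 CPM in males with and 6.75 ± 3.85 CPM in males without Cyp2b (SD, n = 4 each).

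Plin5, which ties droplets to mitochondria in tissues that burn fat, lies next to Plin4 and shares the TATAA and CCAAT letters shown above, yet no diet comparison passed the test. ND-fed WT females had 44.6, 79.5, 31.2 and 31.0 CPM and CDAHFD-fed WT females 37.2, 37.6, 28.5 and 75.4 CPM, with 1 high library in each group. The log2 change was -0.03 (95% confidence interval -0.64 to 0.59). It was 0.43 (-0.19 to 1.05) in Cyp2b-null females, -0.37 (-0.75 to 0.01) in WT males and -0.16 (-0.55 to 0.22) in Cyp2b-null males (-0.26 without ND libraries 2 and 4), and libraries overlapped in all 4 comparisons. These intervals leave room for changes in either direction but lie below those of Plin4 in all 4 comparisons. Plin4 shares 17 of 5777 exonic bases with Hdgfl2 on the other strand, listed in the tables as Hdgfrp2, whose log2 change ran from 0.01 to 0.49.

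Plin2, the main droplet coat protein of hepatocytes, rose moderately and in females. ND-fed WT females had 405, 573, 366 and 316 CPM and CDAHFD-fed WT females 664, 654, 556 and 899 CPM. ND library 2 reached above the lowest CDAHFD library, and the rise was 1.67-fold (log2 change 0.74 ± 0.22 SE, adjusted p = 0.019). Leaving out ND library 3 or 4 or CDAHFD library 4 gave log2 changes of 0.68, 0.63 and 0.59 with adjusted p of 0.057, 0.071 and 0.082, so the call rests on these libraries. Cyp2b-null females fell into 336 and 353 CPM (libraries 1 and 3) and 659 and 663 CPM (libraries 2 and 4) on ND and were at 622, 831, 770 and 862 CPM on the CDAHFD. The rise was 1.53-fold (log2 change 0.62 ± 0.22 SE, adjusted p = 0.042). That call was lost when any of 8 of the 16 libraries was left out (ND-fed WT 1, CDAHFD-fed WT 1 and 2, ND-fed Cyp2b-null 1 and 3, and CDAHFD-fed Cyp2b-null 2, 3 and 4), with log2 changes of 0.46 to 0.62 and adjusted p up to 0.14.

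In males Plin2 did not pass the test. WT males had 531, 434, 415 and 366 CPM on ND and 509, 506, 618 and 493 CPM on the CDAHFD, a log2 change of 0.28 (95% confidence interval -0.06 to 0.62). Cyp2b-null males had 437, 797, 634 and 644 CPM on ND and 708, 508, 537 and 514 CPM on the CDAHFD, a log2 change of -0.15 (-0.49 to 0.19). The direction turned without ND libraries 2 and 4, where the log2 change was 0.08 (adjusted p = 0.82). Libraries overlapped in both genotypes.

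Plin3, a widely expressed perilipin that moves from the cytosol to new droplets, rose in all 4 comparisons by similar factors. WT females went from 45.6, 21.8, 45.1 and 41.7 CPM to 52.4, 71.3, 84.6 and 79.1 CPM (1.85-fold, log2 change 0.88 ± 0.18 SE, adjusted p = 0.0011), and Cyp2b-null females from 37.8-47.0 to 59.2-71.2 CPM (1.64-fold, adjusted p = 0.0054), without overlap. In Cyp2b-null males it went from 58.8, 39.8, 46.8 and 43.6 to 66.4, 102, 86.4 and 64.4 CPM (1.69-fold, adjusted p = 0.0026), again without overlap. In WT males ND library 2 (70.6 CPM) lay inside the CDAHFD range of 61.0 to 90.3 CPM, and the rise was 1.46-fold (log2 change 0.54 ± 0.18 SE, adjusted p = 0.027). That call was lost without ND library 1, 3 or 4 or CDAHFD library 3, at log2 changes of 0.44, 0.50, 0.50 and 0.43 and adjusted p of 0.093, 0.066, 0.069 and 0.11.

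Plin3 is not particular to hepatocytes, and markers of other liver cells moved with the diet. The summed level of 8 macrophage markers was 265 to 426 CPM in ND-fed and 836 to 1358 CPM in CDAHFD-fed females, and 122 to 225 against 738 to 1980 CPM in males. Of the 7 markers tested, 6 rose in each diet comparison, and Trem2 was listed at 0 in all 32 libraries. The 6 hepatocyte markers fell from 127120-190680 to 73542-113970 CPM in females and from 100360-124380 to 52022-98348 CPM in males, with 4 to 6 of them lower and 0 higher by comparison. The 6 stellate cell markers went from 136-192 to 221-296 CPM in females and from 96.6-125 to 196-287 CPM in males, with 1, 2, 1 and 4 of them higher. Of all genes tested, 13.9, 16.9, 18 and 20.3% were higher and 10.2, 13.9, 15 and 17.1% lower in the same comparisons. Stellate counts of 1 or 2 of 6 cannot be set apart from these shares. The part of the marker shifts in the rise of Plin3, Plin2 and other members was not tested, and in bulk liver fewer cells of a type and less RNA per cell cannot be told apart.

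The lipase gene Pnpla2 rose in females of both genotypes and in WT males. Pnpla2 (ATGL) went from 51.6, 65.5, 56.6 and 67.2 CPM on ND to 93.5, 109, 78.1 and 103 CPM on the CDAHFD in WT females (1.60-fold, log2 change 0.67 ± 0.16 SE, adjusted p = 0.0033) and from 56.9-83.3 to 88.3-135 CPM in Cyp2b-null females (1.62-fold, adjusted p = 0.0021), with no overlap in either. In WT males the levels were 61.6, 31.7, 48.3 and 42.9 CPM on ND and 61.4, 65.7, 65.3 and 88.1 CPM on the CDAHFD (1.52-fold, log2 change 0.60 ± 0.17 SE, adjusted p = 0.0087), and ND library 1 just reached the CDAHFD range. In Cyp2b-null males the groups did not overlap, at 48.0-67.6 and 70.1-89.4 CPM, but the log2 change of 0.40 (95% confidence interval 0.05 to 0.74) had an adjusted p of 0.069. Without ND-fed WT male library 1 or 2 that adjusted p was 0.046 and 0.038, and without ND-fed Cyp2b-null male libraries 2 and 4 the log2 change was 0.46 (adjusted p = 0.13).

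G0s2, the inhibitor of ATGL, fell in males. WT males had 46.2, 20.6, 66.7 and 42.7 CPM on ND and 20.3, 13.7, 11.9 and 19.0 CPM on the CDAHFD. The lowest ND library lay just above the highest CDAHFD library, and the level was 2.74-fold lower on the CDAHFD (log2 change -1.45 ± 0.32 SE, adjusted p = 0.0013). Cyp2b-null males had 39.9, 85.0, 55.7 and 119 CPM on ND and 15.8, 10.6, 13.3 and 16.2 CPM on the CDAHFD, with no overlap. The level was 5.39-fold lower (log2 change -2.43 ± 0.32 SE, adjusted p = 4.1e-06), and without libraries 2 and 4 the log2 change was -1.79 ± 0.31 (adjusted p = 0.00026). In WT females G0s2 was at 57.4, 56.5, 29.2 and 32.9 CPM on ND and 115, 33.5, 24.0 and 29.6 CPM on the CDAHFD. The first CDAHFD library was above all others, and the log2 change was 0.20 (95% confidence interval -0.60 to 0.99). Without that library the direction turned, to a log2 change of -0.60 (adjusted p = 0.14). Cyp2b-null females had 23.1, 34.8, 48.4 and 64.5 CPM on ND and 43.6, 38.3, 33.5 and 39.8 CPM on the CDAHFD, a log2 change of -0.15 (-0.95 to 0.65).

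Hsd17b13, whose product is found on hepatocyte droplets, was among the highest and the least variable members, with a coefficient of variation of 3.71 to 11.6% within groups. It rose from 370, 437, 464 and 370 CPM to 735, 681, 584 and 737 CPM in WT females (1.67-fold, log2 change 0.74 ± 0.13 SE, adjusted p = 0.0002) and from 375-422 to 607-792 CPM in Cyp2b-null females (1.77-fold, adjusted p = 5.5e-05). In WT males it rose from 345, 303, 372 and 339 CPM to 495, 497, 397 and 456 CPM (1.36-fold, log2 change 0.44 ± 0.11 SE, adjusted p = 0.0034) and in Cyp2b-null males from 335-366 to 434-513 CPM (1.31-fold, adjusted p = 0.0072). ND and CDAHFD libraries did not overlap in any of the 4 comparisons. In Cyp2b-null males without ND libraries 2 and 4 the log2 change of 0.38 was similar and its adjusted p was 0.065, and for Plin3 it was 0.59 with an adjusted p of 0.068. Scaling by library size alone gave log2 changes of 0.76 to 1.08 for Hsd17b13, so the size of its rise depended on the scaling while its direction did not.

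Cideb, the CIDE protein of hepatocytes, was at 224 to 268 CPM in ND-fed and 234 to 278 CPM in CDAHFD-fed WT females (log2 change -0.01, 95% confidence interval -0.28 to 0.26), and the male groups spanned 158 to 220 CPM. In Cyp2b-null males the log2 change was -0.13 without ND libraries 2 and 4. In Cyp2b-null females the ND libraries lay within 242 to 246 CPM and the CDAHFD libraries were at 253, 291, 375 and 269 CPM. These did not overlap, and the log2 change of 0.29 (0.02 to 0.55) had an adjusted p of 0.095. In WT males the direction depended on the scaling: the log2 change was -0.05 with TMM and 0.33 (adjusted p = 0.034) by library size alone. Of the 1488 exonic bases of Cideb, 1136 (76.3%) are also exonic in Nop9, a ribosome biogenesis gene on the other strand. The strand setting of the counting is not given in the sources used here, so the counts of Cideb and Nop9 are uncertain.

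The test of the difference between the sexes' diet effects used both tables in a single fit of 14020 genes. In Cyp2b-null mice 1 of 9 members differed, against 3.4% of all genes, with 5 members and 2690 genes at an unadjusted p under 0.05. This was G0s2, whose diet effect was lower in males by 2.26 on the log2 scale (log2 difference -2.26 ± 0.54 SE, 95% confidence interval -3.36 to -1.15, adjusted p = 0.016). Without ND-fed Cyp2b-null male library 4 it was -1.94 (adjusted p = 0.051), and without libraries 2 and 4 it was -1.61 (adjusted p = 0.17). In WT mice 0 of 9 differed, against 0.97% of all genes, with 2 members and 1439 genes at an unadjusted p under 0.05. There G0s2 had a log2 difference of -1.63 (-2.74 to -0.52, adjusted p = 0.18), which was -0.83 (adjusted p = 0.62) without CDAHFD-fed WT female library 1. The log2 difference of Plin2 was -0.44 (-1.03 to 0.15) in WT and -0.74 (-1.33 to -0.15, adjusted p = 0.15) in Cyp2b-null mice, so that a call in females and not in males is no evidence that the sexes differed. For Cidec it was -0.50 (-2.12 to 1.12) in WT and -1.77 (-3.11 to -0.42, adjusted p = 0.13) in Cyp2b-null mice, and in the latter -0.43 without libraries 2 and 4.

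No member passed the threshold for genotype, on either diet, in either sex. In females 0 of 9 were called on ND, where 0.0756% of all genes were, and 0 of 9 on the CDAHFD, where 0.0227% were. In males the counts were 0 of 9 on ND (0.0371% of all genes) and 0 of 9 on the CDAHFD (0.0297%). At an unadjusted p under 0.05 the edgeR quasi-likelihood test gave 0 and 2 members in females and 4 and 0 in males, on ND and the CDAHFD, beside 760 and 771 of all genes in females and 1112 and 487 in males, and DESeq2 called 1, Cidec in ND-fed males, and 0 in the other 3 comparisons. Without the filter on low counts, Cidec and G0s2 were called in ND-fed males and Plin4 in CDAHFD-fed females, where 170 and 69 genes were called in place of 5 and 3. With so few genes called anywhere, these counts cannot set the members apart from other genes.

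The genotype estimate furthest from 0 was that of Cidec in ND-fed males. Cidec was at 9.73 ± 7.26 CPM (SD, n = 4) in ND-fed males of the null line and at 2.18 ± 1.23 CPM (n = 4) in their WT counterparts, a log2 difference of 2.12 (95% confidence interval 1.07 to 3.17, adjusted p = 0.14), and DESeq2 gave 2.16 with an adjusted p of 0.026. WT library 1 (3.98 CPM) lay above null libraries 1 and 3. Without null libraries 2 and 4 the log2 difference was 0.78 ± 0.45. G0s2 was at 75.0 ± 34.9 and 44.0 ± 18.8 CPM, a log2 difference of 0.75 (0.13 to 1.37, adjusted p = 0.48), which was 0.11 without these libraries. Plin2 in ND-fed males was at 628 ± 148 CPM in the null and 437 ± 69.0 CPM in the WT group (SD, n = 4 each), with overlap. Its log2 difference was 0.52 (0.18 to 0.86, adjusted p = 0.34 by the edgeR quasi-likelihood test). Without null libraries 2 and 4 the mean of Plin2 in the null group was 536 CPM. In CDAHFD-fed females Plin4 was at 13.5 ± 3.5 CPM in the null group against 24.5 ± 12 CPM in the WT group (SD, n = 4 each), a log2 difference of -0.87 (-1.53 to -0.20, adjusted p = 0.83). For Hsd17b13 all 4 genotype intervals lay between -0.32 and 0.30, and for Plin3 between -0.48 and 0.49.

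**Figure D3:**
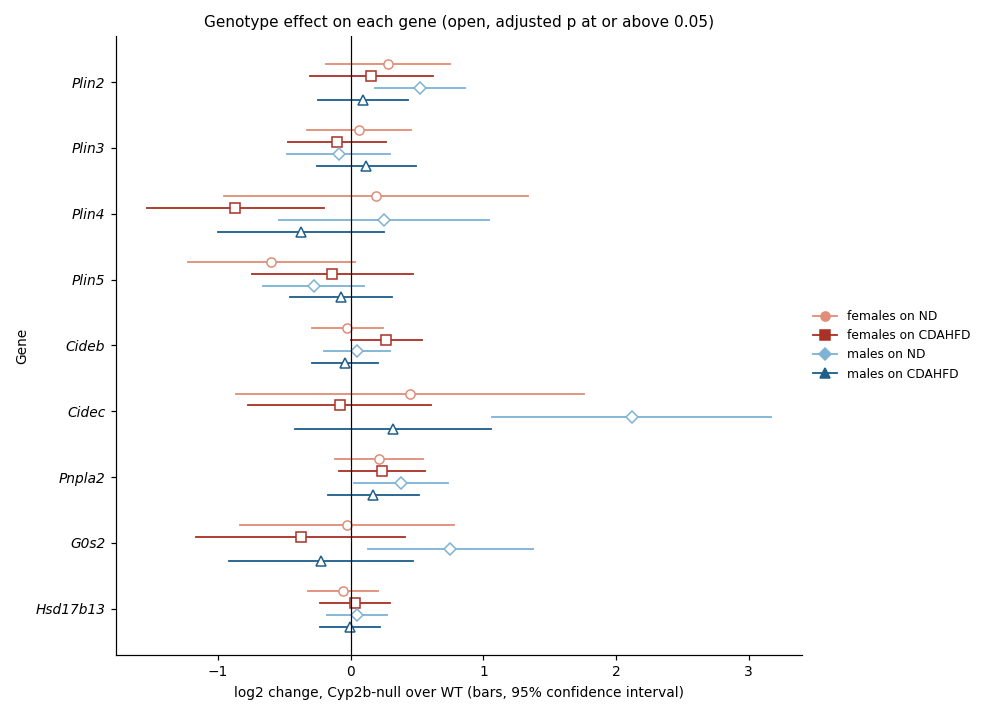
Log2 change of Cyp2b-null over WT (x axis) for each tested gene (y axis) on ND and on the CDAHFD in females and males. Symbols are estimates from 4 against 4 libraries and bars 95% confidence intervals; all symbols are open, since none passed an adjusted p of 0.05, and Cidec in ND-fed males lies furthest from 0, at 2.12.

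The diet effect itself was also compared between genotypes. In females 0 of 9 members differed, where 0% of all genes did, with 0 members and 830 genes at an unadjusted p under 0.05. In males 0 of 9 differed, against 0.00743% of all genes, with 2 members and 817 genes at an unadjusted p under 0.05. These were Cidec (log2 difference, Cyp2b-null minus WT, -1.80, 95% confidence interval -3.09 to -0.50, adjusted p = 0.70) and G0s2 (-0.98, -1.91 to -0.05, adjusted p = 0.82), and without ND-fed Cyp2b-null male libraries 2 and 4 they were -0.47 and -0.33. Between the sexes the genotype effect on the CDAHFD differed for 0 of 9 members, against 0.00713% of all genes, with 0 members and 439 genes at an unadjusted p under 0.05. DESeq2 called 0 members in each of these 3 comparisons.

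Ratios within a library do not depend on depth or scaling. The ratio of G0s2 to Pnpla2 counts, inhibitor to lipase, was 0.75, 0.651, 1.38 and 0.995 in ND-fed and 0.331, 0.209, 0.182 and 0.216 in CDAHFD-fed WT males. In Cyp2b-null males it was 0.831, 1.46, 0.830 and 1.76 on ND and 0.177, 0.151, 0.164 and 0.215 on the CDAHFD, so that the diets did not overlap in males of either genotype. In WT females it was 1.11, 0.863, 0.515 and 0.490 on ND and 1.23, 0.306, 0.307 and 0.287 on the CDAHFD, where 1 library lay above the ND range and 3 below it. In Cyp2b-null females it was 0.380, 0.418, 0.849 and 0.836 on ND and 0.494, 0.335, 0.249 and 0.346 on the CDAHFD, with overlap. The ratio of Cidec to Cideb counts was 0.00575 to 0.0101 in ND-fed and 0.0398 to 0.220 in CDAHFD-fed WT females, and 0.00612 to 0.0203 against 0.0714 to 0.189 in WT males. In Cyp2b-null females it was 0.00636 to 0.0151 on ND and 0.0553 to 0.163 on the CDAHFD. In Cyp2b-null males it was 0.0193, 0.0694, 0.0194 and 0.0892 on ND and 0.0931 to 0.203 on the CDAHFD. The Cideb counts in this ratio are uncertain, as given above, because of the exonic bases shared with Nop9. The ratio of Plin4 to its neighbour Plin5, added after the values were seen, was 0.0179 to 0.0761 and 0.443 to 0.697 in WT females, and did not overlap between diets in any of the 4 comparisons. No test was made on the ratios.

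**Figure D4:**
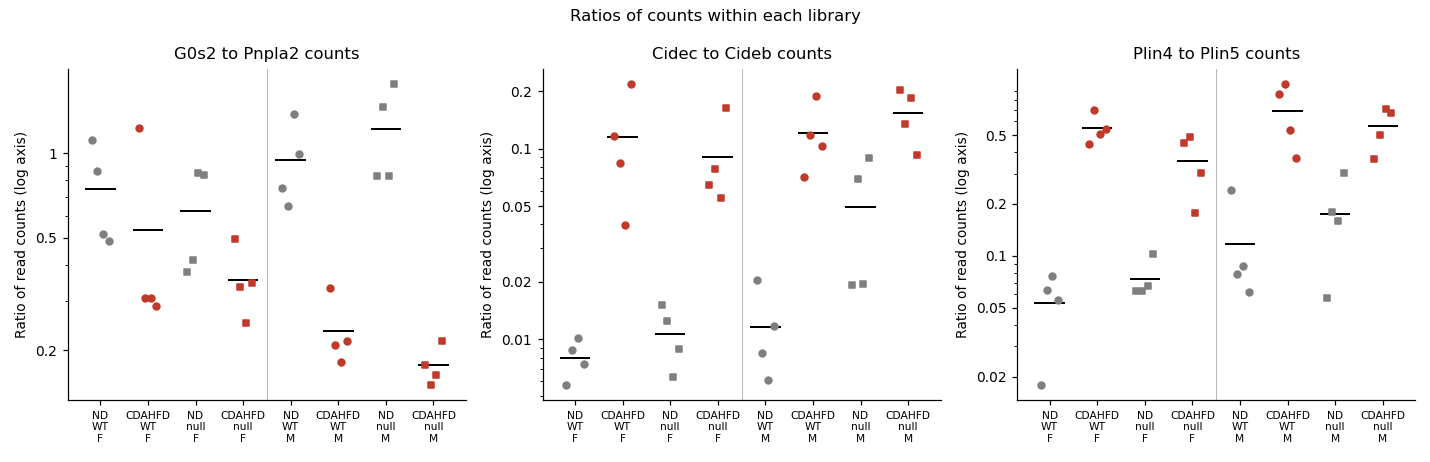
Ratio of read counts within each library (y axis, log scale) for G0s2 to Pnpla2, Cidec to Cideb and Plin4 to Plin5, by group on the x axis. Points are libraries (circles WT, squares Cyp2b-null; grey ND, red CDAHFD) and bars means of 4; the inhibitor to lipase ratio of males is 0.651 to 1.76 on ND and 0.151 to 0.331 on the CDAHFD.

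A list of 40 other droplet genes, which make, shape or break down the store, gave more falls than rises on the CDAHFD with TMM, and this split depended on the scaling. In WT females 3 rose and 10 fell of 38 tested, in Cyp2b-null females 1 rose and 15 fell of 38, in WT males 4 rose and 14 fell of 37, and in Cyp2b-null males 3 rose and 14 fell of 37 (0 and 10 without ND libraries 2 and 4). Of all genes tested, 13.9, 16.9, 18 and 20.3% rose and 10.2, 13.9, 15 and 17.1% fell in the same order. The median log2 change was -0.24, -0.14, -0.30 and -0.31, against -0.02 to 0.03 for all genes, while that of the members was above 0 in each. By library size alone 7, 8, 8 and 8 rose and 7, 11, 5 and 5 fell, with medians of 0.08, 0.11, 0.09 and 0.05. Among 11 tested genes of esterification, the making of triglyceride, 6, 6, 5 and 4 fell and 1, 1, 2 and 1 rose. Acsl1, which activates fatty acids, fell in all 4 comparisons, by 1.04 and 1.35 on the log2 scale in WT and Cyp2b-null females and by 1.33 and 1.49 in males. Dgat2, which makes triglyceride from diacylglycerol, fell by 0.51, 0.54, 0.51 and 0.39 in the same order, and the call in WT females was lost without ND library 4 (adjusted p = 0.055). By library size alone Acsl1 still fell in all 4 comparisons, by 0.71 to 1.15, whereas the log2 changes of Dgat2 were -0.19, -0.29, -0.12 and -0.03 and did not pass.

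Among 7 tested genes of droplet formation and size, 1, 0, 1 and 1 rose and 0, 2, 2 and 2 fell. A list this short cannot be set apart from all genes, of which 13.9 to 20.3% rose and 10.2 to 17.1% fell. Fitm1, an endoplasmic reticulum protein that helps droplets bud, was singled out after its values were seen. It was at 5.69 ± 2.29 CPM in ND-fed and 12.6 ± 4.34 CPM in CDAHFD-fed WT females (SD, n = 4), a rise of 1.08 on the log2 scale, and at 37.5 ± 16.6 and 13.9 ± 4.35 CPM in WT males, where it fell by 1.44. The call in WT females was lost without ND library 2 or CDAHFD library 2 or 3, at an adjusted p of up to 0.079. In Cyp2b-null females Fitm1 was at 6.74 ± 3.01 CPM on ND and 10.3 ± 3.21 CPM on the CDAHFD, and its log2 change of 0.66 did not pass. In Cyp2b-null males it was at 57.1 ± 23.8 CPM on ND and 12.7 ± 2.30 CPM on the CDAHFD and fell by 2.15, or by 1.63 without ND libraries 2 and 4 (adjusted p = 0.0012). Its diet effect differed between the sexes in WT (log2 difference, males minus females, -2.48, adjusted p = 0.0078) and in Cyp2b-null mice (-2.80, adjusted p = 0.0012, and -2.26, adjusted p = 0.021, without those libraries).

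Of the genes of lipolysis tested (9 in females, 8 in males), 1, 0, 0 and 0 rose and 1, 2, 4 and 3 fell. This list too is short, beside 13.9 to 20.3% of all genes that rose and 10.2 to 17.1% that fell. Abhd5 (CGI-58), the coactivator of ATGL, passed the test in none, with log2 changes of 0.17, 0.26, -0.19 and -0.13. Hilpda, another inhibitor of ATGL, rose in WT females by 1.74 on the log2 scale (adjusted p = 0.0029), and its log2 changes of 0.59, 1.16 and 0.98 in the other comparisons did not pass. Its counts were few, 1 to 7 in ND-fed and 11 to 26 in CDAHFD-fed WT female libraries. Pnpla3, a lipase-like droplet protein of hepatocytes, was low, at 9.28 ± 7.10 CPM in ND-fed and 0.268 ± 0.286 CPM in CDAHFD-fed WT females. It fell in females (log2 change -5.11 in WT, to at most 3 counts on the CDAHFD, and -2.69 in Cyp2b-null), and in males it did not pass the filter, with 0 to 18 counts. CDAHFD-fed WT female libraries thus lay at or below the floor, and ND-fed ones held 3 to 103 counts. CDAHFD-fed Cyp2b-null female libraries held 2 to 6 counts, so the size of either fall is uncertain. Plin1, the perilipin of adipocytes, had at most 1 count in any library. Among 11 other surface genes 0, 0, 1 and 1 rose and 3, 5, 3 and 5 fell, and the sterol enzyme Nsdhl fell in all 4 comparisons, by 1.67 and 1.62 on the log2 scale in females and by 0.51 and 0.53 in males, where it did not pass by library size alone (-0.13 and -0.15). Its call in males was also lost without WT ND library 1 or 3 or CDAHFD library 2 or 3 (adjusted p up to 0.091), and in Cyp2b-null males without ND library 3 or CDAHFD library 1 (up to 0.088) or without ND libraries 2 and 4 (0.072).

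Of 7 transcription factors known to control droplet genes, 1, 1, 1 and 0 rose and 3, 3, 2 and 4 fell (2 in Cyp2b-null males without ND libraries 2 and 4, where the calls of Ppara and Creb3l3 were lost). Among all genes tested, 13.9 to 20.3% rose and 10.2 to 17.1% fell in these comparisons. Pparg, the adipocyte regulator to which Cidec and Plin4 are known to respond, rose by 0.96 on the log2 scale in WT females (adjusted p = 0.00021), by 0.54 in Cyp2b-null females (adjusted p = 0.013) and by 0.69 in WT males (adjusted p = 0.024), and its log2 change in Cyp2b-null males was 0.02. Mlxipl (ChREBP) and Srebf1, regulators of fat synthesis, fell in all 4 comparisons, Mlxipl by 0.60, 0.84, 1.28 and 1.33 and Srebf1 by 0.82, 0.95, 1.07 and 1.0 on the log2 scale. Ppara, which drives fatty acid oxidation, fell in Cyp2b-null females and males by 0.77 and 0.43, and its log2 changes in WT mice were -0.10 and -0.07. Nr1h3 passed the test in none, Creb3l3 fell in Cyp2b-null males by 0.36 and Ppargc1a fell in WT females by 0.74. By library size alone the calls of Srebf1 in all 4 comparisons, of Mlxipl in males and of Pparg in females and WT males were kept, those of Ppara, of Creb3l3 in Cyp2b-null males and of Mlxipl and Ppargc1a in females were lost, and calls were gained: Ppargc1a rose in males, by 0.85 in WT and 0.73 in Cyp2b-null mice, Creb3l3 in WT females by 0.67, and Nr1h3 in Cyp2b-null females by 0.45 and in WT males by 0.34. Leaving out 1 library ended 5 of the calls made with TMM. In WT females these were Mlxipl (ND library 1, 3 or 4, CDAHFD library 1, 3 or 4, or Cyp2b-null CDAHFD library 2, adjusted p up to 0.14) and Ppargc1a (ND library 2 or 3 or CDAHFD library 1, 2 or 3, up to 0.12). The others were Pparg in Cyp2b-null females (CDAHFD library 4, 0.067) and WT males (ND library 3 or 4 or CDAHFD library 3 or 4, up to 0.079), and Ppara in Cyp2b-null males (ND library 2 or 4 or CDAHFD library 2 or 3, up to 0.12).

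**Figure D5:**
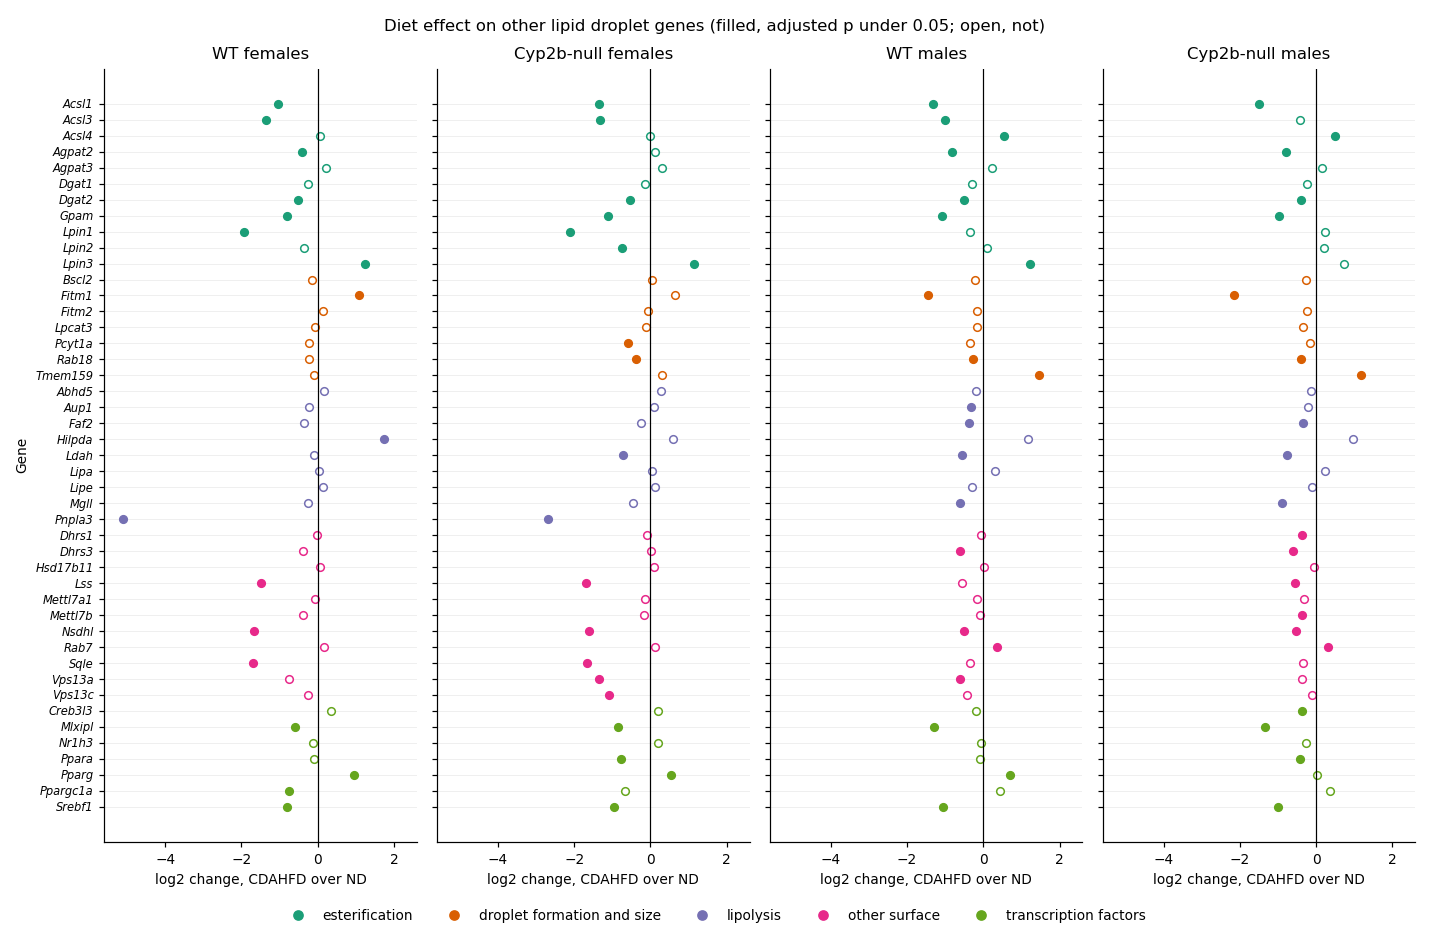
Log2 change on the CDAHFD over ND (x axis) of the other droplet genes and transcription factors (y axis), in WT females, Cyp2b-null females, WT males and Cyp2b-null males. Colours give the role and filled symbols passed an adjusted p of 0.05; Acsl1 and Srebf1 are filled left of 0 in all 4 panels, and Fitm1 is right of 0 in females and left of 0 in males.

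The genes whose pattern was most like that of each member were taken from the 12978 genes tested in both tables, by the lower of the correlations over the 16 libraries of each table. All libraries share the diet contrast, so these values are descriptions. For Cidec they were Cd36, a fatty acid uptake receptor (Pearson's r = 0.94 in females and 0.92 in males), and 2010003K11Rik (0.95 and 0.92). For Plin4 they were Agpat9, which encodes a glycerol-3-phosphate acyltransferase (0.93 and 0.96), and Alcam (0.90 and 0.93). Hsd17b13 was most like the acute phase gene Orm2 (0.93 and 0.93) and Gm3776 (0.93 and 0.94), Pnpla2 most like Gpx3 (0.89 and 0.89) and Sod3 (0.86 and 0.86), and Plin3 most like the keratin Krt8 (0.87 and 0.88) and Emilin1 (0.87 and 0.87). Plin2 was most like Fabp2, a fatty acid binding protein (0.83 and 0.79), and Gm39011 (0.74 and 0.77). The likeness was weaker for G0s2, with Ppp1r3c, a glycogen-targeting subunit (0.72 and 0.72), and AW549542 (0.68 and 0.63), and for Plin5, with Zfp622 (0.69 and 0.64) and Atoh8 (0.57 and 0.66). Cideb was most like Nop9 (0.90 and 0.86), the gene with which it shares exonic bases, and Bst2 (0.84 and 0.81). Between members, Cidec and Plin4 had r = 0.91 in females and 0.87 in males, whereas Plin4 and its neighbour Plin5 had r = 0.40 and -0.56.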

How the data were processed

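Total RNA from mouse liver was sequenced in 32 libraries, 4 per group. The authors deposited 2 tables of raw read counts per gene, 1 for females and 1 for males. Per the study's methods and the submitters' processing notes, they used FastQC, Trimmomatic, GSNAP on GRCm38.p6, Subread's featureCounts and edgeR. Tool versions, strand setting and treatment of reads that match several genes are not given in the sources used here. Sharing of reads between overlapping genes could therefore change counts.

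Counts were used as deposited. In each table, genes passing filterByExpr (smallest count 10, smallest total 15) were scaled by TMM and fitted with edgeR 4.0.16 (quasi-likelihood, R 4.3.3, limma 3.58.1) over all 16 libraries and 4 groups, without covariates. Adjusted p are Benjamini-Hochberg over all genes tested, and confidence intervals are 95%. Male minus female differences came from a fit of all 32 libraries. DESeq2 1.42.0 was an alternative. The fits were tested on simulated data. The labels do not say whether the 4 libraries of a group came from separate mice, so p-values measure the spread between libraries, which may in part be technical. The members and gene lists were chosen with earlier results of these data known. Named genes were all members, 5 fixed droplet genes, 7 transcription factors, and listed genes called the same way in all 4 diet comparisons with a mean change above 1 on the log2 scale. The 2 genes most like each member used log2 CPM with a prior count of 2. Lengths and overlaps were from GENCODE M21, and positions and sequences from RefSeq. Replicate numbers did not pair the libraries. No 2 libraries of a group agreed within sampling noise (chi-square per gene 3.34 to 65.5 over 48 pairs).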

Additional observations from a re-analysis of the deposited data

Results flagged for a closer look

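In 8 of the 72 combinations of a member and a group, 1 of the 4 libraries lay far from the others. The limit used has a nominal level of 5%. All members share the same libraries and no share over all genes is given here, so this count is not read as an excess. High libraries were at 618 CPM for Plin2 in CDAHFD-fed WT males, 708 CPM for Plin2 in CDAHFD-fed Cyp2b-null males, 10.3 CPM for Plin4 in ND-fed WT males, 278 CPM for Cideb in CDAHFD-fed WT females, 88.1 CPM for Pnpla2 in CDAHFD-fed WT males and 115 CPM for G0s2 in CDAHFD-fed WT females. Low libraries were at 21.8 CPM for Plin3 in ND-fed WT females and 8.3 CPM for Plin4 in CDAHFD-fed Cyp2b-null females.

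The diet effect differed between the sexes by the test of the difference itself for 1 member, G0s2 in Cyp2b-null mice (log2 difference, males minus females, -2.26). G0s2 lost this edgeR quasi-likelihood call without ND-fed Cyp2b-null male library 4 (adjusted p = 0.051) and without libraries 2 and 4 (0.17). Among the other genes named, the diet effect differed for Fitm1 in WT (-2.48) and Cyp2b-null mice (-2.80) and for Nsdhl in WT (1.18) and Cyp2b-null mice (1.12), whose fall was smaller in males. Of the 40 other droplet genes 38 were tested, and 2 were called in WT and 4 in Cyp2b-null mice, against 0.97% and 3.4% of 14020 genes. Agpat2 (-0.89, adjusted p = 0.025) and Lpin1 (2.37, adjusted p = 0.021) were also among those called in Cyp2b-null mice by the edgeR quasi-likelihood test. Fitm1 kept its call in both genotypes when any 1 of the 32 libraries was left out and without ND-fed Cyp2b-null male libraries 2 and 4. Nsdhl in WT mice lost it with only the groups compared (adjusted p = 0.075), without those 2 libraries (0.057) and when any of 12 of the 32 libraries was left out, 11 of them WT (up to 0.12). In Cyp2b-null mice Nsdhl, Agpat2 and Lpin1 lost it without libraries 2 and 4 (0.11, 0.077 and 0.088), with 15 libraries per table (0.064, 0.068 and 0.065), and when any of 6, 5 and 3 of the 32 libraries was left out, ND-fed Cyp2b-null male library 2 and CDAHFD-fed Cyp2b-null male library 3 among them for all 3 genes.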

How the results depend on the processing

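The number of members called in each diet comparison stayed within 1.5 times under RLE scaling, library size alone, both other filters, DESeq2, only the groups compared, 15 libraries per table, an adjusted p under 0.1 and leaving out each library. The ranges on leaving out 1 library were 5 to 6 in each of the 4 comparisons. Without ND-fed Cyp2b-null male libraries 2 and 4, a choice made after seeing the data, 3 members were called for diet in Cyp2b-null males and 0 for the male minus female difference in Cyp2b-null mice, which ranged from 0 to 1 on leaving out 1 library. Without the low-count filter members were called in comparisons that otherwise had fewer: 1 for genotype on the CDAHFD in females, 2 for genotype on ND in males, 2 for the genotype difference of the diet effect in males, and 2 and 3 for the male minus female difference in WT and Cyp2b-null mice. DESeq2 called 1 for genotype on ND in males. The causes were not tested. The direction of Cideb in WT males reversed to 0.33 by library size alone. Replicate numbers are shared between groups, but same-numbered libraries deviated from their group means with a median correlation of -0.01 in females and 0.02 in males. A replicate block gave 6, 6, 6 and 5 members called for diet and changed no call of a member. The number of all genes called varied more. For genotype on ND it was 10 in females (122 without the filter, 23 with DESeq2) and 5 in males (170 without the filter, 71 with DESeq2, 11 at an adjusted p under 0.1, 8 with the replicate block, 3 by library size alone, 2 with only the groups compared, 1 without ND-fed Cyp2b-null male libraries 2 and 4, and 2 to 29 on leaving out 1 library). For genotype on the CDAHFD it was 3 in females (69 without the filter, 5 with DESeq2) and 4 in males (51 without the filter, 2 with 15 libraries), with ranges of 3 to 4 and 1 to 5 on leaving out 1 library. For the genotype difference of the diet effect it was 0 in females and 1 in males (46 and 95 without the filter, 1 and 9 with DESeq2, 2 in males by library size alone, 1 in females at an adjusted p under 0.1 and with a filter of 1 CPM, and 0 to 1 and 0 to 3 on leaving out 1 library). For the male minus female difference it was 136 in WT (469 without the filter, 219 at an adjusted p under 0.1, 79 with only the groups compared, and 84 to 261 on leaving out 1 library), 477 in Cyp2b-null mice (923 without the filter, 983 at an adjusted p under 0.1, 245 with 15 libraries, 126 without libraries 2 and 4, and 238 to 578 on leaving out 1 library) and 1 for genotype (49 without the filter, 2 with only the groups compared, 0 with 15 libraries, and 0 to 2 on leaving out 1 library). By library size alone Plin2 in WT males (0.68), Cideb in Cyp2b-null females (0.53) and Pnpla2 in Cyp2b-null males (0.77) also passed for diet. Depth limits Cidea and Plin1, Pnpla3 in males and in CDAHFD-fed females, and Hilpda on ND, which lie near the floor. The diet changes of Cidec and Plin4 rest on 4 to 84 counts per ND library.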
